A study of Mus musculus with 9 samples.

Results

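The membrane genes of the red cell were followed through the mandibles of WT and *FcγRIIB*-/- mice. A set of 8 genes, *Slc4a1*, *Epb42*, *Rhag*, *Rhd*, *Sptb*, *Ank1*, *Epb41* and *Dmtn*, was taken by symbol from the 27179 genes of the count table, and all 8 were among the 16329 genes that passed the filter on low counts. RNA-seq was performed on whole mandibles including teeth of 6-month-old C57BL/6 males. There was 1 library per mouse, from 5 WT mice and 4 mice labelled *FcγRIIB*-/-. The label names loss of the inhibitory Fc gamma receptor that restrains antibody-driven immune responses. The sources used here do not describe the targeted allele, and the labels name no other allele or treatment in either group. A whole mandible holds bone, teeth, marrow, blood and attached muscle, so a lower count in it can come from fewer cells of a type or from less RNA per cell, and these cannot be told apart.

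Beneath the red cell membrane lies a net of spectrin tetramers joined at actin nodes. It gives the cell its shape and lets it deform in capillaries. *Slc4a1* encodes band 3, the anion exchanger that carries bicarbonate and serves as the main anchor of the net, and *Epb42* encodes protein 4.2, which binds band 3. *Ank1* encodes ankyrin 1, the bridge from band 3 to spectrin, and *Sptb* encodes the beta chain of spectrin. *Epb41* (protein 4.1R) strengthens the contact between spectrin and actin, and *Dmtn* (dematin) bundles actin at the same nodes. *Rhag* and *Rhd* encode the Rh-associated glycoprotein, an ammonium and gas channel, and the Rh polypeptide, which reach the membrane together. In the adult mouse these proteins are made by erythroblasts of the marrow and spleen, and inherited loss of several of them causes spherocytic anemia. *Slc4a1*, *Epb42*, *Rhag* and *Rhd* are largely restricted to erythroid cells (*Slc4a1* also has a kidney form). *Sptb* and *Ank1* have forms in skeletal muscle as well, and *Epb41* and *Dmtn* are transcribed in many tissues.

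Upstream sequence is shown for the members that moved together, with *Sptb* for contrast. The sites of the erythroid regulator GATA1 include the letters AGATAA and TGATAA, and only these forms of the site were searched. RefSeq promoter windows on GRCm38.p6 were found for 5 of the 8 members, in 7 windows. There was none for *Slc4a1*, *Ank1* and *Dmtn*. Each sequence is the 250 bases upstream of a transcription start, written 5′ to 3′ on the strand of the gene, and capitals mark AGATAA or TGATAA or their reverse complements, searched on both strands.
*Rhd*, chr4:134864286-134864535, plus strand: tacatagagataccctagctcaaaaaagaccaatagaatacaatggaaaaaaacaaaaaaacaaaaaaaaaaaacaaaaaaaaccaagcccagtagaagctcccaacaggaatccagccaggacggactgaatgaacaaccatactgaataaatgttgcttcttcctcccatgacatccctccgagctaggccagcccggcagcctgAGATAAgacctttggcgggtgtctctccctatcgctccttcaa
*Rhag*, chr17:40810899-40811148, plus strand: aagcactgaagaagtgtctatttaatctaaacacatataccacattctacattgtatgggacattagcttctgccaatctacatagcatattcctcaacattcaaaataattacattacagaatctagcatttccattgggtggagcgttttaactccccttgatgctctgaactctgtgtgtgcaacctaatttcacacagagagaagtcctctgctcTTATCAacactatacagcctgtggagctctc
*Epb42*, chr2:121036878-121037127, minus strand: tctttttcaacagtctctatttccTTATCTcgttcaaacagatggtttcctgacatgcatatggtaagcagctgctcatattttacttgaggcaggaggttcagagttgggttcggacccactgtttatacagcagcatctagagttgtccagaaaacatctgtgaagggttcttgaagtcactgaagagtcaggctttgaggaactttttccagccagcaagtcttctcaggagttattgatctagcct
*Sptb*, chr12:76710548-76710797, minus strand: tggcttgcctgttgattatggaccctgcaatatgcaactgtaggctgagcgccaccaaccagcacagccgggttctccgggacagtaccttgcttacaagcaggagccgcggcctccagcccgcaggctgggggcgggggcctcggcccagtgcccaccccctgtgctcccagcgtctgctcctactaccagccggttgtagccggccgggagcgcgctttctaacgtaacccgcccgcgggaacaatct
The match lay 43 bases upstream of the RefSeq start in *Rhd*, 31 in *Rhag* and 226 in *Epb42*. The windows of *Rhag* and *Epb42* run into the GENCODE loci given below, so these distances depend on which annotated start is used. The windows of *Sptb* and all 3 windows of *Epb41* had none of these letters. Other forms of the GATA1 site were not searched, so this does not show that those windows lack one. Among all 32851 promoter windows, 16.6% held at least 1 match, so a match is common and is given as a description of the sequence. The letters CACCC, not marked here, were also searched on both strands. They occurred in the windows of *Rhag*, *Rhd* and *Sptb* and not in those of *Epb42* and *Epb41*, against 52.0% of all windows. By these letters *Sptb* did not stand apart from the Rh genes.

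The targeted gene and the libraries were examined before the members. The WT level of *Fcgr2b* in CPM, the count relative to the normalized library size, averaged 24.0 ± 8.28 (SD, n = 5), and the level under the label *FcγRIIB*-/- averaged 27.8 ± 2.90 (SD, n = 4). Its log2 fold change was 0.21, with a standard error (SE) of 0.20 and an edgeR adjusted p = 0.442. Its count was not lower under the knockout label, so every difference given here is between libraries by their labels. Total counts per library ranged from 21453880 to 28991631. Bone and dentin genes were abundant in every library, with at least 24640 CPM of *Col1a1* and at least 2645 CPM of *Dspp*. Across all 16329 tested genes, 33.3% passed edgeR's adjusted threshold of 0.05, 19.3% as lower and 14.0% as higher under the label *FcγRIIB*-/-, and 17.5% had every WT mouse above every labelled mouse. These shares are the background for the counts of members and of gene lists below.

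All 4 erythroid-restricted genes fell to between 4.04% and 5.69% of the WT mean in mice labelled *FcγRIIB*-/-, while *Dmtn*, *Sptb* and *Epb41* kept between 33.2% and 45.9% of it and *Ank1* did not pass the test. Of the 8 members, 7 were lower and none was higher past the edgeR threshold, against 19.3% of all tested genes that were lower. The same 7 members had every WT mouse above every labelled mouse, against 17.5% of all tested genes. The 4 erythroid-restricted members had a median log2 fold change of -4.50, against -1.40 over the 2 broadly expressed members and 0.01 over all tested genes.

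**Figure D1:**
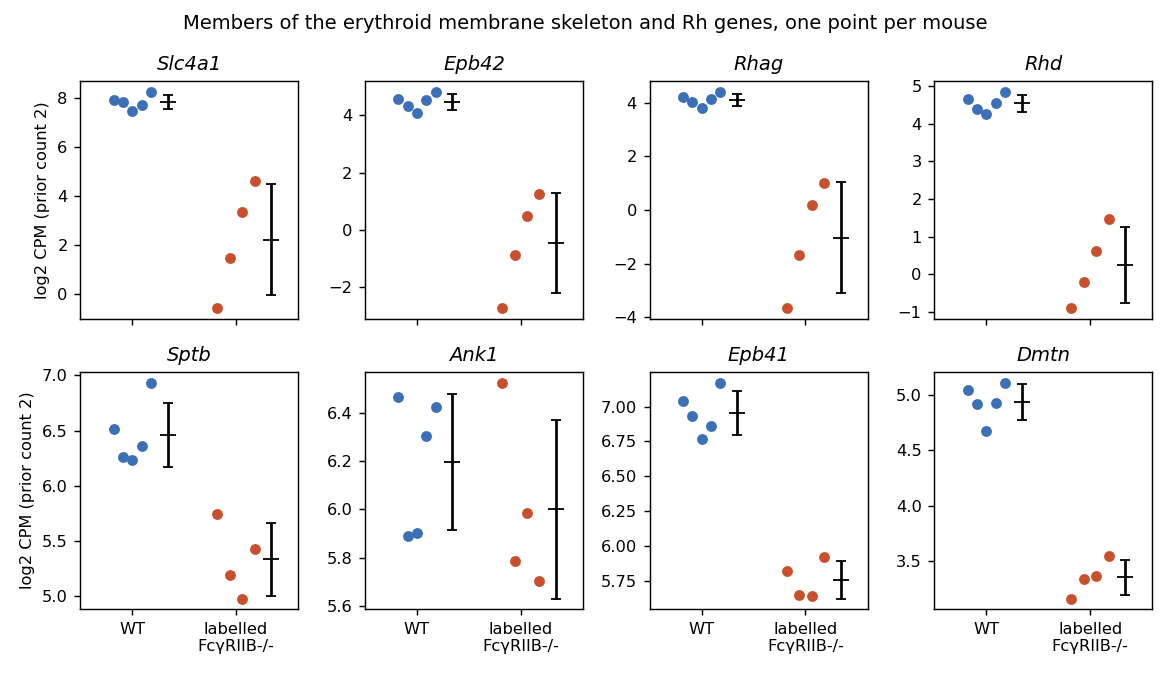
Level of each member in log2 CPM (prior count 2), 1 point per mouse, for 5 WT mice (blue) and 4 mice labelled *FcγRIIB*-/- (orange), with the mean and SD as a bar beside each group and a separate vertical scale per gene. The 4 erythroid-restricted genes in the upper row spread over several log2 units among the labelled mice, *Sptb*, *Epb41* and *Dmtn* are lower with a narrow spread, and the groups overlap in *Ank1*.

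Band 3 showed the largest change among the members. *Slc4a1* (gene identifier 20533, chromosome 11 of mm10, 102348824 to 102366203) was at 247, 228, 179.7, 213 and 309 CPM in WT replicates 1 to 5, and at 0.596, 2.68, 10.2 and 24.5 CPM in labelled replicates 1 to 4. All labelled mice were low, and the lowest WT mouse was 7.33-fold above the highest of them. The log2 fold change was -4.66 (SE 0.77, edgeR adjusted p = 0.00185), which placed *Slc4a1* at rank 86 from the lowest among the 16329 genes. The labelled mice differed 41.2-fold between the highest and the lowest, where WT mice differed 1.72-fold.

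Its binding partner protein 4.2 moved with it. *Epb42* (gene identifier 13828, chromosome 2, 121017891 to 121037072) was at 23.5, 19.8, 16.8, 23.0 and 28.2 CPM in WT and at 0.0701, 0.462, 1.31 and 2.28 CPM in the labelled mice, in the order of their replicates. Replicate 1 was again the lowest and replicate 4 the highest of the labelled mice, and the groups were 7.35-fold apart at their nearest. The log2 fold change was -4.50 (SE 0.53, edgeR adjusted p = 3.99e-04).

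Both Rh genes fell as well. *Rhag* (gene identifier 19743, chromosome 17, 40811126 to 40840754) was at 18.5, 16.1, 13.7, 17.4 and 21.04 CPM in WT and at 0, 0.231, 1.06 and 1.93 CPM in the labelled mice. Replicate 1 had 0 counts of *Rhag*, which allows a level of up to 0.105 CPM in that library (3 counts), and the fold change of *Rhag* depends in part on how this 0 is handled. Its log2 fold change was -4.51 (SE 0.60, edgeR adjusted p = 7.30e-04). *Rhd* (gene identifier 19746, chromosome 4, 134864536 to 134896172) was at 25.5, 20.9, 19.0, 23.5 and 28.9 CPM in WT and at 0.455, 0.786, 1.44 and 2.69 CPM in the labelled mice, a log2 fold change of -4.18 (SE 0.38, edgeR adjusted p = 1.04e-04). No labelled mouse reached the WT range in either gene.

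The remainder of these 4 transcripts varied strongly between the labelled mice. As a percentage of the WT mean, *Slc4a1* was at 0.253 in replicate 1, 1.14 in replicate 2, 4.32 in replicate 3 and 10.4 in replicate 4. *Epb42* was at 0.315, 2.08, 5.90 and 10.2 percent in the same mice, and *Rhd* at 1.93, 3.33, 6.11 and 11.4 percent. All 4 genes were lowest in replicate 1 and highest in replicate 4, an arrangement that 7.83% of all tested genes shared. It was not particular to these 4 genes, as 12 of the 21 erythroid markers described below (57.1%) had it too. In replicate 4 the 4 genes stood close together between 10.2 and 11.4 percent, whereas in replicate 1 they ranged from 0 to 1.93 percent. There *Rhd* had 13 counts (95% exact Poisson interval 6.92 to 22.2), *Epb42* had 2 (0.242 to 7.22) and *Rhag* had 0, intervals that cover counting error only. The difference between these genes within replicate 1 was not tested.

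**Figure D2:**
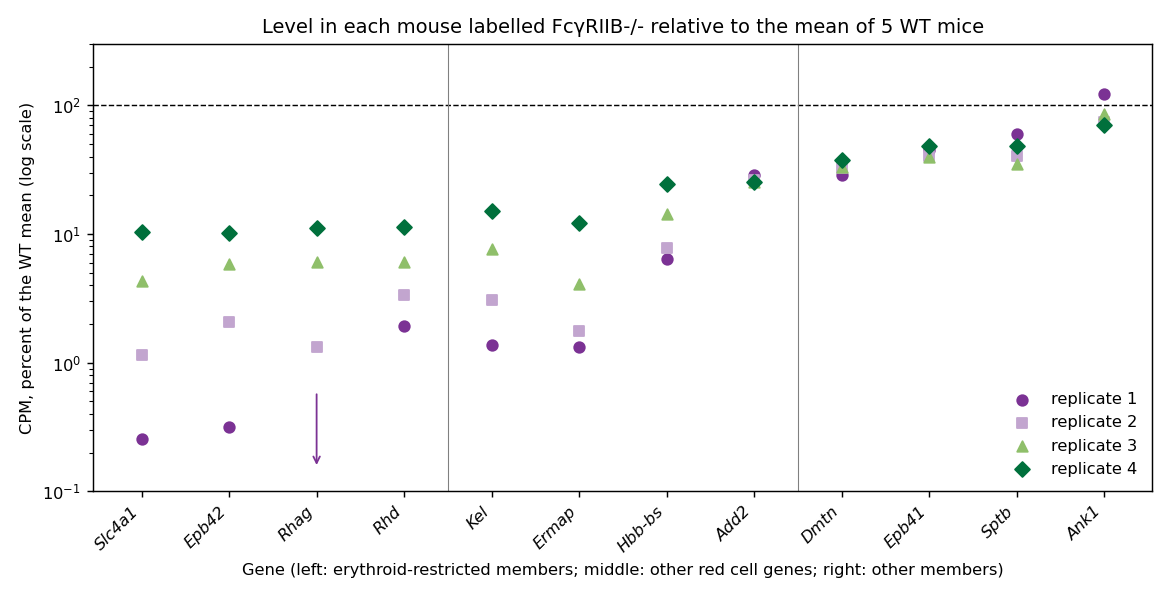
CPM in each of the 4 mice labelled *FcγRIIB*-/- as a percentage of the mean of 5 WT mice, on a log scale, with 1 marker per replicate and the dashed line at the WT mean. The arrow for *Rhag* in replicate 1 marks 0 counts and starts at the level 3 counts would give, 0.606 percent. The 4 erythroid-restricted members, *Kel* and *Ermap* spread widely between the replicates, while *Add2* and the members at the right stay within a narrow band.

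Spectrin beta and the broadly expressed members fell less. *Sptb* (gene identifier 20741, chromosome 12, 76580488 to 76710547) was at 91.3, 76.4, 74.98, 82.2 and 122 CPM in WT and at 53.5, 36.4, 31.4 and 43.0 CPM in the labelled mice. The groups did not overlap, with the lowest WT mouse 1.40-fold above the highest labelled mouse, which here was replicate 1. The log2 fold change was -1.12 (SE 0.18, edgeR adjusted p = 0.00163).

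*Epb41* (gene identifier 269587, chromosome 4, 131923413 to 132075321) was at 131, 122, 109, 116 and 144 CPM in WT and at 56.4, 50.2, 49.9 and 60.5 CPM in the labelled mice. Its level was nearly even among the labelled mice, which differed 1.21-fold, and the log2 fold change was -1.20 (SE 0.095, edgeR adjusted p = 7.58e-05). *Dmtn* (gene identifier 13829, chromosome 14, 70601263 to 70636048) was at 32.8, 30.1, 25.4, 30.4 and 34.4 CPM in WT and at 8.86, 10.03, 10.2 and 11.6 CPM in the labelled mice, a log2 fold change of -1.59 (SE 0.11, edgeR adjusted p = 4.48e-05). The highest labelled mouse of *Dmtn* stood 2.19-fold below the lowest WT mouse.

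*Ank1* was the exception. It (gene identifier 11733, chromosome 8, 22974844 to 23150497) was at 88.2, 59.2, 59.7, 78.9 and 85.8 CPM in WT and at 91.9, 55.2, 63.3 and 52.0 CPM in the labelled mice. The groups overlapped, and the highest of the 9 values was that of labelled replicate 1. The log2 fold change was -0.18 (95% interval -0.58 to 0.22, edgeR adjusted p = 0.478), and the difference in CPM did not exceed the spread between mice (p = 0.421 by exact permutation, two-sided). For each of the other 7 members the same permutation test gave p = 0.00794, the smallest that 5 mice against 4 allow. The interval of *Ank1* leaves out the fall of any other member, but the size of that contrast was not tested.

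Counts per gene do not separate the erythroid from the muscle transcripts of *Ank1* and *Sptb*. GENCODE lists 13 protein-coding *Ank1* transcripts, of which 3 start in the last 10% of the gene, from position 23139030 onward, where the short muscle forms of ankyrin 1 arise. Of the exonic bases of *Ank1*, 8.58% overlap an antisense gene, *Gm15816*, and the strand setting of the counting is not given in the sources used here, so reads on those bases are uncertain. No other member shared more than 0.624% of its exonic bases with another gene.

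Skeletal muscle genes were higher in the same libraries. Of 18 muscle markers, 9 passed as higher and none as lower under the label *FcγRIIB*-/-, against 14.0% of all tested genes that were higher, and the median log2 fold change was 0.81. *Tcap*, a cap protein of titin in the sarcomere, rose by 1.39 and *Tnni2*, the fast troponin I, by 1.37 on the log2 scale. The markers summed to between 9860 and 23157 CPM in WT and between 23433 and 40915 CPM in the labelled mice, with WT replicate 2 lowest and labelled replicate 1 highest. None of the 18 was at 0 in any labelled library. When the mean log2 CPM of these markers was added to the fit as a covariate, an alternative chosen after the data were seen, the log2 fold change of *Ank1* was -0.59 (SE 0.19, edgeR adjusted p = 0.067) and that of *Sptb* was -1.51 (adjusted p = 0.00229). The 4 erythroid-restricted members were between -4.92 and -4.40 in that fit, and *Epb41* and *Dmtn* at -1.33 and -1.65. *Ank1* stayed on the same side of the threshold, with a larger negative value. The covariate did not overlap between the groups, at 8.57 to 9.82 in WT and 9.85 to 10.7 in the labelled mice. The fit therefore cannot separate muscle level from the label.

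**Figure D3:**
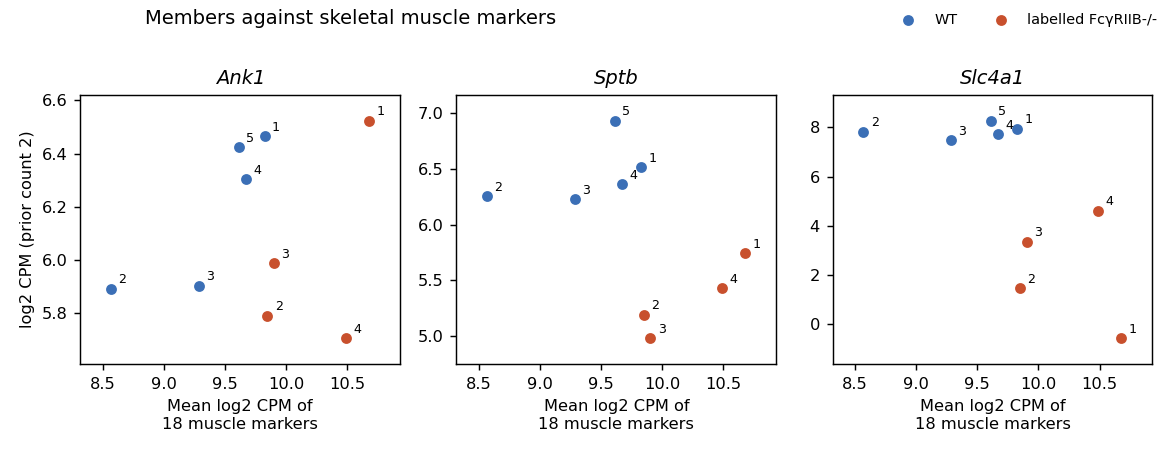
Level of *Ank1*, *Sptb* and *Slc4a1* in log2 CPM (prior count 2) against the mean log2 CPM of 18 skeletal muscle markers, 1 point per mouse with its replicate number, for 5 WT mice (blue) and 4 mice labelled *FcγRIIB*-/- (orange). Labelled replicate 1 has the highest muscle mean, 10.7, together with the highest *Ank1* and the lowest *Slc4a1*, and every labelled mouse lies below every WT mouse in *Sptb* and *Slc4a1*.

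The order of the members by level changed between the groups. The length used pools the exons of all protein-coding transcripts of a gene, 13 for *Ank1* and 14 for *Epb41*. Where shorter forms supply the reads, it misstates the level, so the order between genes is approximate. Per kilobase of protein-coding exon, *Slc4a1* was highest in WT at 51.8 ± 10.6 (SD, n = 5) CPM per kb, followed by *Rhd* at 15.6 ± 2.55. *Epb41* (8.55 ± 0.932), *Ank1* (7.69 ± 1.45), *Sptb* (7.46 ± 1.62) and *Rhag* (7.42 ± 1.17) came next and lay within one another's spread. *Dmtn* (4.98 ± 0.552) and *Epb42* (4.50 ± 0.868) were last and lay within each other's spread too. In the labelled mice *Ank1* was highest at 6.78 ± 1.88 (SD, n = 4) CPM per kb, then *Epb41* at 3.72 ± 0.352 and *Sptb* at 3.43 ± 0.796, which lay within each other's spread. *Slc4a1* came after these at 2.09 ± 2.38, a spread that reached *Epb41*, *Sptb*, *Dmtn* (1.66 ± 0.183) and the genes below, and *Rhd*, *Rhag* and *Epb42* followed at 0.886 ± 0.651, 0.344 ± 0.374 and 0.208 ± 0.198. Within each mouse, the mean log2 CPM of the 4 erythroid-restricted members minus that of the 2 broadly expressed members was between -0.82 and -0.55 in WT and between -6.45 and -2.65 in the labelled mice.

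Among the WT mice the members also varied together. Replicate 5 was highest and replicate 3 lowest in all 4 erythroid-restricted members and in *Sptb*, *Epb41* and *Dmtn*, an arrangement shared by 7.42% of all tested genes. The exception was *Ank1*, which was highest in replicate 1 and lowest in replicate 2. With the genotype means removed over all 9 mice, the log2 CPM of *Slc4a1*, *Epb42*, *Rhag* and *Rhd* each had a Pearson r of at least 0.98 with their mean, of which they are part, and r was 0.72 for *Dmtn*, 0.22 for *Epb41*, -0.28 for *Sptb* and -0.51 for *Ank1*. These values rest mostly on the 4 labelled mice, whose spread was the wider.

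The genes most like the erythroid-restricted members in this measure were mostly red cell genes. Among 12913 other genes with an average log2 CPM of 2 or more, the 8 with the highest r with their mean over 9 mice, given as a description, included *Hemgn* (0.992), a nuclear protein of hematopoietic cells, and *Cldn13* (0.989), a claudin. *Kel* (0.985), the Kell blood group metalloprotease, *Nubp2* (0.977), *Alas2* (0.973), the erythroid enzyme that starts heme synthesis, *Ctse* (0.969), the protease cathepsin E, and *Tspo2* (0.956) were among them too. Of those named, all but *Nubp2* passed as lower in the labelled mice, with log2 fold changes between -4.84 (*Hemgn*) and -3.65 (*Alas2*). *Nubp2*, a cytosolic iron-sulfur assembly factor, did not pass, at 24.3 CPM in WT and 25.2 CPM in the labelled mice. Within the 5 WT mice alone, none of the 8 was among the 8 most alike genes, so the ranking depends on the labelled mice. Their r within WT mice was still between 0.579 (*Kel*) and 0.987 (*Hemgn*). With 5 mice and 12913 genes, many genes can reach a high r by chance. The change of rank therefore does not show that the likeness is absent in WT mice.

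The other membrane genes of the red cell differed widely in how far they fell. Of 28 other membrane and skeleton genes of the red cell, 17 were lower and 3 higher in the libraries labelled *FcγRIIB*-/-. The other 8 did not pass, and of all tested genes 19.3% were lower and 14.0% higher. The median log2 fold change of the 28 genes was -0.37 (0.01 over all tested genes). *Ermap*, an erythroblast membrane protein that carries the Scianna blood group, had a log2 fold change of -4.43 (SE 0.48, edgeR adjusted p = 2.79e-04), and *Kel* one of -3.94 (SE 0.46, edgeR adjusted p = 4.09e-04). *Kel* was at 28.0, 25.4, 24.6, 23.9 and 26.5 CPM in WT and at 0.350, 0.786, 1.95 and 3.85 CPM in the labelled mice. *Ermap* and *Kel* were at 4.84% and 6.75% of the WT mean, and they too were lowest in replicate 1 and highest in replicate 4.

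Adducin fell with a narrow spread among the labelled mice. *Add2*, the beta adducin that caps actin at the junction, was at 14.5, 12.8, 12.6, 14.2 and 17.1 CPM in WT and at 4.10, 3.74, 3.60 and 3.60 CPM in the labelled mice (log2 fold change -1.92, SE 0.12, edgeR adjusted p = 3.66e-05). The labelled mice differed 1.14-fold in *Add2*, against 10.99-fold in *Kel*. Differences in fold change between genes were not tested.

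Smaller changes and rises were seen in other genes of the list. *Add1*, the broadly expressed alpha adducin, and *Mpp1* were named after their values were seen. *Add1* had a log2 fold change of -0.34, and *Mpp1*, the palmitoylated protein p55, one of -0.38, and both passed. *Tpm1*, an actin-binding tropomyosin of muscle and other cells, rose by 0.68 and *Bcam*, the Lutheran glycoprotein of epithelium and red cells, by 0.44 on the log2 scale. Without labelled replicate 1, *Bcam* did not pass (edgeR adjusted p = 0.0521). *Tmod1*, the tropomodulin that caps the pointed end of actin in red cells and muscle, averaged 71.3 ± 17.5 CPM (SD, n = 5) among WT mice and 101 ± 21.5 CPM (SD, n = 4) among labelled mice and did not pass (edgeR adjusted p = 0.073). The log2 fold change of Tmod1 passed as higher in DESeq2 (0.51, adjusted p = 0.0375) and with the replicate number as a block in edgeR (0.55, adjusted p = 0.0126). The muscle markers above were higher in the same libraries as *Tpm1* and *Tmod1*, and their part in these values was not tested.

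**Figure D4:**
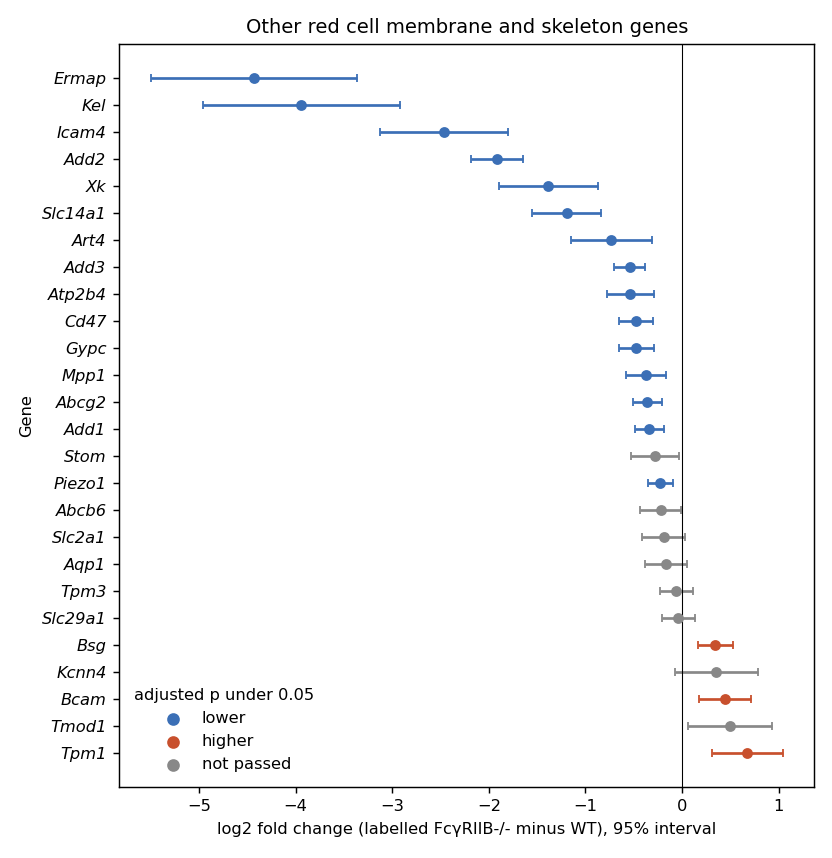
log2 fold change (labelled *FcγRIIB*-/- minus WT) with its 95% interval for other red cell membrane and skeleton genes, coloured by whether they passed an adjusted p under 0.05. *Ermap* and *Kel* lie at -4.43 and -3.94, *Icam4* and *Add2* at -2.47 and -1.92, and the others between -1.38 (*Xk*) and 0.68 (*Tpm1*).

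Paralogs that serve the same functions outside the red cell showed no common direction. Of 21 such genes, 2 were lower, 3 higher and 16 did not pass, against 19.3% lower and 14.0% higher over all tested genes. The median log2 fold change of the 21 genes was 0.04. *Sptbn1* and *Sptan1*, the spectrins of most other cells, averaged 435 ± 27.8 and 335 ± 36.9 CPM (SD, n = 5) among WT mice and 385 ± 31.5 and 306 ± 20.4 CPM (SD, n = 4) among labelled mice, and did not pass (edgeR adjusted p = 0.132 and 0.296). *Tgm2*, the transglutaminase from whose family protein 4.2 derives, had a log2 fold change of 0.08 (95% interval -0.16 to 0.33). *Epb41l2* (protein 4.1G) passed as lower with a log2 fold change of -0.33, and *Ank3* and *Ablim3* as higher with 0.40 and 0.47. Without labelled replicate 1, *Ablim3* did not pass (edgeR adjusted p = 0.0507). *Ank3*, the ankyrin of neurons and epithelia, is an example outside the rule for named genes, chosen after its values were seen.

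**Figure D5:**
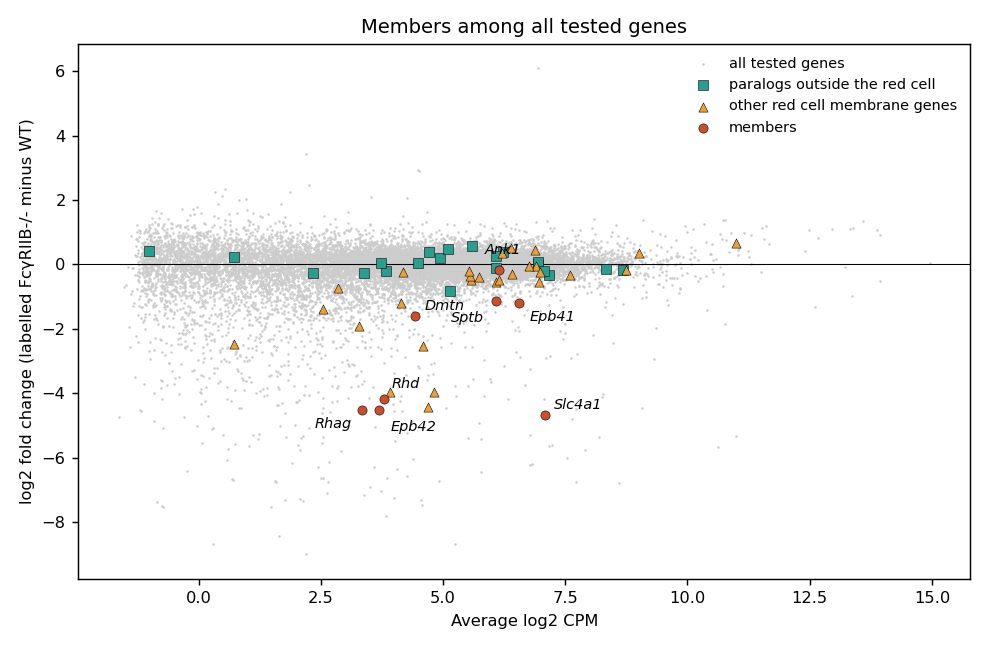
log2 fold change (labelled *FcγRIIB*-/- minus WT) against average log2 CPM for all 16329 tested genes (grey), the 8 members (orange circles), 28 other red cell membrane genes (yellow triangles) and 21 paralogs (green squares). The 4 erythroid-restricted members lie at -4.18 and below, *Dmtn*, *Epb41* and *Sptb* between -1.59 and -1.12, and *Ank1* among the paralogs near 0.

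The wider erythroid program was lower in the same libraries. Of 24 erythroid markers, 21 had a row under their symbol, and 20 of these were lower and none higher. Over all tested genes, 19.3% were lower and 14.0% higher. The median log2 fold change of the 21 markers was -2.89. *Hemgn* (-4.84), *Car1* (-4.54), the carbonic anhydrase of red cells, *Trim10* (-4.34) and *Slc38a5* (-4.28), a glutamine transporter, had the largest falls. Globin mRNA persists in circulating reticulocytes. *Hbb-bs*, a beta globin gene named after its values were seen, averaged 1036 ± 76.5 CPM (SD, n = 5) among WT mice and 137 ± 85.5 CPM (SD, n = 4) among labelled mice, 13.2% of the WT mean, against 4.04% for *Slc4a1*. Replicate 1 kept 65.9 CPM of *Hbb-bs* beside 0.596 CPM of *Slc4a1*. The beta globin genes are near-identical, and the split of reads between them is uncertain.

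Other marrow lineages were lower together with the members. All 15 granulocyte and monocyte markers, 9 of 10 B cell precursor markers and 9 of 10 megakaryocyte markers were lower, and none was higher. Among all tested genes, 19.3% were lower and 14.0% higher. Granulocyte and monocyte markers summed to between 1420 and 3959 CPM in WT, highest in replicate 5, and to between 211 and 549.7 CPM in the labelled mice, where replicate 1 was highest and replicate 4 lowest. In labelled replicates 1 to 4, B cell precursor markers summed to 18.9, 14.1, 22.2 and 32.7 CPM. Megakaryocyte markers summed to 133, 89.7, 141 and 148 CPM in the same mice. Both lists were highest in replicate 4 and lowest in replicate 2. The erythroid-restricted members summed to between 229 and 387 CPM in WT and to 1.12, 4.16, 14.0 and 31.4 CPM in labelled replicates 1 to 4. Among WT mice they and the granulocyte and monocyte markers were both highest in replicate 5 and lowest in replicate 3. No gene of these 3 marrow lists was at 0 in any labelled library, and their part in the level of the members was not tested.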

How the data were processed

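Single-end 75 bp reads of directional poly(A) libraries went through Trim Galore, HISAT on mm10 and featureCounts, and the authors deposited the resulting raw counts, not normalized. The annotation, strand setting and treatment of multi-mapping reads are not given in the sources used here. A value column of the table with no matching sample (1 column) was left out. Rows without a symbol held 0.097% of the counts. Groups and replicate numbers come from the labels.

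Counts were analysed in R 4.3.3 with edgeR 4.0.16: filterByExpr (minimum count 10), TMM, the quasi-likelihood test of genotype without covariates and Benjamini-Hochberg adjustment over all tested genes at 0.05. Standard errors are the absolute log2 fold change over the root of F. log2 CPM used a prior count of 2. Single values were compared by two-sided exact permutation over 126 splits. DESeq2 1.42.0, other scalings and filters, a replicate block and each mouse left out were alternatives. The fit was tested on simulated counts. Members and lists were chosen with earlier results of these data known. Besides the members and genes chosen by role, each list contributed its 4 largest falls and 2 largest rises past the threshold, and the lists of other marrow lineages are given as counts. Loci and exon lengths are from GENCODE on mm10, and promoters from RefSeq. Totals per library were between 21453880 and 28991631 counts, and members at under 1 CPM rest on few reads. Some genes covered by the rule are not reported here.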

Additional observations from a re-analysis of the deposited data

Results flagged for a closer look

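Of 18 groups examined (8 members and *Fcgr2b* in each genotype), 2 held a mouse far from the rest of its group, both in *Fcgr2b*, and chance alone gives about 1 in 20 groups. *Fcgr2b* was at 38.3 CPM in WT replicate 2, above the other WT mice, and at 32.1 CPM in replicate 4 of the libraries labelled *FcγRIIB*-/-, above the other labelled mice. No member had such a mouse in either group.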

How the results depend on the processing

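The 7 members that passed did so with each mouse left out in turn, when the number called lower stayed at 7, and under the other scalings, DESeq2, no filter and the replicate block. Requiring at least 10 counts in every library removed *Epb42* and *Rhag* before testing, which left 2 erythroid-restricted members called lower, 5 members in all and 13 erythroid markers. With each mouse left out, the log2 fold change of *Slc4a1* was between -5.73 and -4.25, that of *Sptb* between -1.28 and -0.96 and that of *Ank1* between -0.39 and -0.08 (adjusted p 0.0849 to 0.779). Replicate numbers mark different animals, and same-numbered mice did not deviate together (r between -0.114 and 0.0969). With the replicate block, 2410 genes were lower and 1594 higher, *Slc4a1* was at -5.10 and *Ank1* at -0.14. None of the 8 most alike genes remained among the first 8 within WT mice alone, where the count of shared genes was 0, and with a prior count of 0.5 it was 8. *Fcgr2b* passed as higher without WT replicate 2 (log2 fold change 0.46, adjusted p = 0.0131), the cause was not tested. Counts of 0 to 53 in *Epb42*, *Rhag* and *Rhd* limit precision in the labelled mice. The log2 fold change of Ablim3 did not pass with the replicate block (adjusted p = 0.0529).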
